A study of Mus musculus with 16 samples.

Results

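The mouse array used here carries many features that are named by something other than a RefSeq transcript, and these features are described below across brains of newborn mice. A probe was a member when its name in the scanner files did not start with a RefSeq prefix (NM_, NR_, XM_ or XR_) and when some group had it marked well above background by the scanner software on each of its 4 arrays. Of 56605 non-control probes, 20719 lay outside RefSeq and 9719 of these were members, with 9470 distinct names. The other 24542 probes that passed the same signal rule were RefSeq probes, so 34261 probes were tested together. The mice were C57BL/6 at postnatal day 1, and total RNA of each brain was hybridized to 1 one-colour array, with 4 animals in each of 4 groups. The fresh group came from fresh sperm and the freeze-dried group from freeze-dried sperm. The irradiated group came from freeze-dried sperm irradiated with 5 Gy, and the heated group from freeze-dried sperm exposed to 95 °C for 1 h. Only the sperm was treated, and the arrays measure the brains of the offspring. Animals are numbered as in the labels (fresh 1 to 4 and so on), and these do not say whether animals share a litter. If some do, the p-values are too small.

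Features outside RefSeq come from several sources of transcript evidence. Names starting with AK are accessions of full-length cDNA clones, most of them from the RIKEN collection of mouse cDNAs, and names starting with ENSMUST are transcripts of the Ensembl annotation. Names that give a chromosome, a start and an end mark genomic intervals, often of long intergenic noncoding RNA, and carry a letter F or R that is read here as the forward or reverse strand. Other names are accessions of single cDNA or expressed sequence tag records, and the files do not explain the names that start with NAP or TC or that repeat a probe number. Long noncoding RNAs are transcribed and often spliced like messenger RNAs but have no long reading frame. Several are known in the brain, and some silence chromosomes or imprinted genes. The scanner files hold no gene symbol for any probe, and 12 of the 9719 members matched a RefSeq symbol or synonym, so nearly all members are given here by class or by coordinate and only a few by accession.

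Tug1 and Kcnq1ot1, long noncoding RNAs that are members under their own names, have a promoter in the RefSeq table of build GRCm38.p6, shown here to set 2 known genes beside the many unnamed features, as 250 bases before to 50 bases after the start. Capitals mark GGGCGG (the GC box) and CCAAT, searched on both strands (CCGCCC and ATTGG on the other). The motifs can share bases where they lie on opposite strands.
Tug1: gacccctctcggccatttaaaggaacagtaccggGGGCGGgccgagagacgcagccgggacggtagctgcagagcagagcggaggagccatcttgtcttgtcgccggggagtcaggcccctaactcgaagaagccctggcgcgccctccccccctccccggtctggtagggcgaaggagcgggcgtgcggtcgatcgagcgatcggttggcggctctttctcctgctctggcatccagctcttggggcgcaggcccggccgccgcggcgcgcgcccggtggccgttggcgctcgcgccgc
Kcnq1ot1: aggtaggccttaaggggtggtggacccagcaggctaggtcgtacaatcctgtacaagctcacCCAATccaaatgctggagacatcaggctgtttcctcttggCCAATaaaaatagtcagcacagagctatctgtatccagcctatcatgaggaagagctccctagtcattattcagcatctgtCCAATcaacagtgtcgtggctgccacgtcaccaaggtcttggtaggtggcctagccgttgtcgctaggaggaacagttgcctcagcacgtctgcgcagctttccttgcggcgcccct
The Tug1 window, chr11:3648765-3649064 on the minus strand, held 1 GGGCGG, 0 CCAAT and 37 CpG dinucleotides. The Kcnq1ot1 window, chr7:143296498-143296797 on the minus strand, held 3 CCAAT, 0 GGGCGG and 9 CpG dinucleotides. Of 32851 promoters in the table, 35.7% held GGGCGG and 37.4% held CCAAT, and the median number of CpG dinucleotides was 7. These matches describe the letters only.

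Each level is a log2 signal after subtraction of the array's own 75th percentile, so a level of 0 equals that percentile and 1 unit is a doubling. Between 58.0% and 64.6% of probes per array were well above background, and no spot was saturated. All 4 freeze-dried animals were on slide 1 and all 4 heated animals on slide 2, while the fresh and irradiated animals 1 and 2 were on slide 1 and 3 and 4 on slide 2. Markers of neurons (4 of 4), astrocytes (4 of 4) and the oligodendrocyte lineage (4 of 4) were above background on all 16 arrays. The mean of 4 hindbrain markers, of which none was above background on all 16 arrays, was between -7.71 and -6.50 on the arrays of fresh 2, freeze-dried 2, heated 2 and heated 4, and between -4.04 and 0.05 on the other 12. The mean of 2 cerebellar markers was 0.11 in heated 2 and -0.51 in heated 4, against 1.72 to 2.10 elsewhere. Only Pcp2 was low there, at -2.55 and -3.73 against 0.81 to 1.24 in the other animals. Calb1, at 2.78 and 2.70, lay within the range of the others, 2.59 to 3.03. The Y-linked gene Ddx3y was above background in 10 animals, of which 2 were fresh, 4 freeze-dried, 3 irradiated and 1 heated. The part of brain region and sex as causes of the differences below was not tested. Counts without the 4 arrays with low hindbrain signal and values with the slide as a term are given beside the results. Counts with the Ddx3y level as a covariate are given for some comparisons.

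The share of features with a signal depended on the class of name. Of the Ensembl transcript probes 53.0% were members (3859 of 7284), of the AK clone probes 46.2% (2791 of 6036) and of the interval probes 41.7% (1855 of 4450). The NAP entries had 66.0% (336 of 509), BC accessions 52.3% (260 of 497), TC entries 43.9% (47 of 107), other accessions 33.8% (489 of 1445) and names that repeat the probe number 19.9% (76 of 381). For comparison, 75.1% of the NM_ probes, which name messenger RNAs, passed the same rule (22260 of 29638), and 38.8% of the NR_ probes, which name noncoding RNAs. Of the 11000 probes outside RefSeq that were not members, 7568 were above background on no array. Signal was broad among the members, since 8264 of them were above background on all 16 arrays. Another 519 passed through 1 group only, and that group was the irradiated in 283, the freeze-dried in 169, the heated in 49 and the fresh in 18. The same counts over all probes are not given here, so these do not tell the members from the whole array. The share of all probes above background also differed between arrays, from 58.0% in heated 1 to 64.6% in freeze-dried 4, and its part was not tested. The members that passed through 1 group had a median level of -4.70 in that group, and the 693 probes with 3 of 4 arrays above background in their best group had -5.00.

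The interval features give positions on build mm9, per the file headers. A total of 4449 interval probes with a strand covered 3229 intervals of 62 to 538251 bp, with a median of 7207 bp. Of intervals up to 1 kb 33.0% of the probes were members (319 of 966), against 47.5% for 1 to 5 kb (235 of 495), 41.9% for 5 to 20 kb (673 of 1607) and 45.4% above 20 kb (627 of 1381). Both strands were probed in 832 intervals. Members lay on both strands in 195 of these, on 1 strand in 383 and on neither in 254. The annotation of that build was not used here, so no gene, exon or intron is assigned to an interval.

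A few members carry the name of a known long noncoding RNA, and their levels are a check on single features. TUG1, an abundant RNA first described in the retina, was measured on every array. Its level was 2.96, 2.71, 2.29 and 2.45 in fresh 1 to 4, 2.57, 2.79, 3.06 and 2.57 in the freeze-dried, 2.71, 2.70, 2.43 and 2.45 in the irradiated and 2.35, 2.43, 2.43 and 2.56 in the heated animals. Its 8 values on slide 1 lay between 2.57 and 3.06 and its 8 values on slide 2 between 2.29 and 2.56, so the slides did not overlap, and the limma adjusted p of the slide difference of -0.37 (SE 0.10) was 0.052. KCNQ1ot1, the antisense RNA of an imprinted cluster, lay between -1.65 and -0.97 over all 16 animals, with no group apart. H19, a maternally expressed imprinted RNA, was 1.22, 0.71, 1.21 and 0.80 in the fresh, 1.19, 0.95, 0.73 and 0.95 in the freeze-dried, 0.93, 0.82, 0.62 and 0.93 in the irradiated and 0.72, 0.69, 0.57 and 0.57 in the heated animals. The heated animals lay below every freeze-dried animal and overlapped the fresh ones, with a difference to the freeze-dried of -0.32 (SE 0.12, adjusted p 0.14). NEAT1, the scaffold of nuclear paraspeckles, was -1.56, -1.89, -1.33 and -1.72 in the fresh and -1.46, -1.09, -1.0 and -1.12 in the irradiated animals, a difference of 0.46 (SE 0.16, adjusted p 0.16) with overlapping values. PINC, described in the mammary gland, lay between -3.27 and -2.62, and NRON, a repressor of the factor NFAT, between -5.39 and -4.46. None of these 6 members passed the limma test in any of the 6 comparisons or between slides. At an unadjusted p under 0.05, H19 and NEAT1 each differed in 2 comparisons, PINC and TUG1 in 1 each, and TUG1 also between the slides. Among the probes that were not members, XIST, which coats and silences the inactive X chromosome, lay between 3.41 and 3.77 in fresh 1, fresh 3, irradiated 4 and heated 1, 2 and 3, and at or below -7.24 in the other 10 animals. TSIX, HOTAIR and lincP21 were above background on no array.

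The median level of a class moved from array to array by more than it differed between groups. Each value here is the median over the members of a class of the deviation from the probe's own mean over 16 arrays. The AK clones moved most among the large classes. Their medians were 0.10, -0.20, 0.04 and -0.11 in fresh 1 to 4, -0.19, -0.15, 0.04 and 0.19 in the freeze-dried, -0.09, 0.13, 0.14 and 0.11 in the irradiated and 0.08, -0.04, 0.08 and -0.01 in the heated animals. The groups overlapped, and the freeze-dried animals spanned almost the whole range, from 1 and 2 at the low end to 4 at the top. The Ensembl transcripts ranged from -0.08 in freeze-dried 1 to 0.09 in freeze-dried 4 and the intervals from -0.10 in freeze-dried 2 to 0.08 in freeze-dried 4. The NAP entries stood at 0.09 in fresh 2 and 0.07 in freeze-dried 1, where the AK clones were low, and at -0.05 in fresh 1. Over all 34261 probes the medians stayed between -0.02 and 0.02. With quantile normalization the AK medians ran from -0.10 in fresh 2 to 0.11 in freeze-dried 4 and the NAP median of fresh 2 was 0.11. The arrays freeze-dried 3, freeze-dried 4, irradiated 2 and irradiated 3 had the largest shares of probes above background, from 63.7% to 64.6%, and all 4 had an AK median above 0. Arrays with smaller shares lay on both sides of 0. Heated 1, with the smallest share (58.0%), was at 0.08, and fresh 2 (61.4%) was at -0.20.

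**Figure D1:**
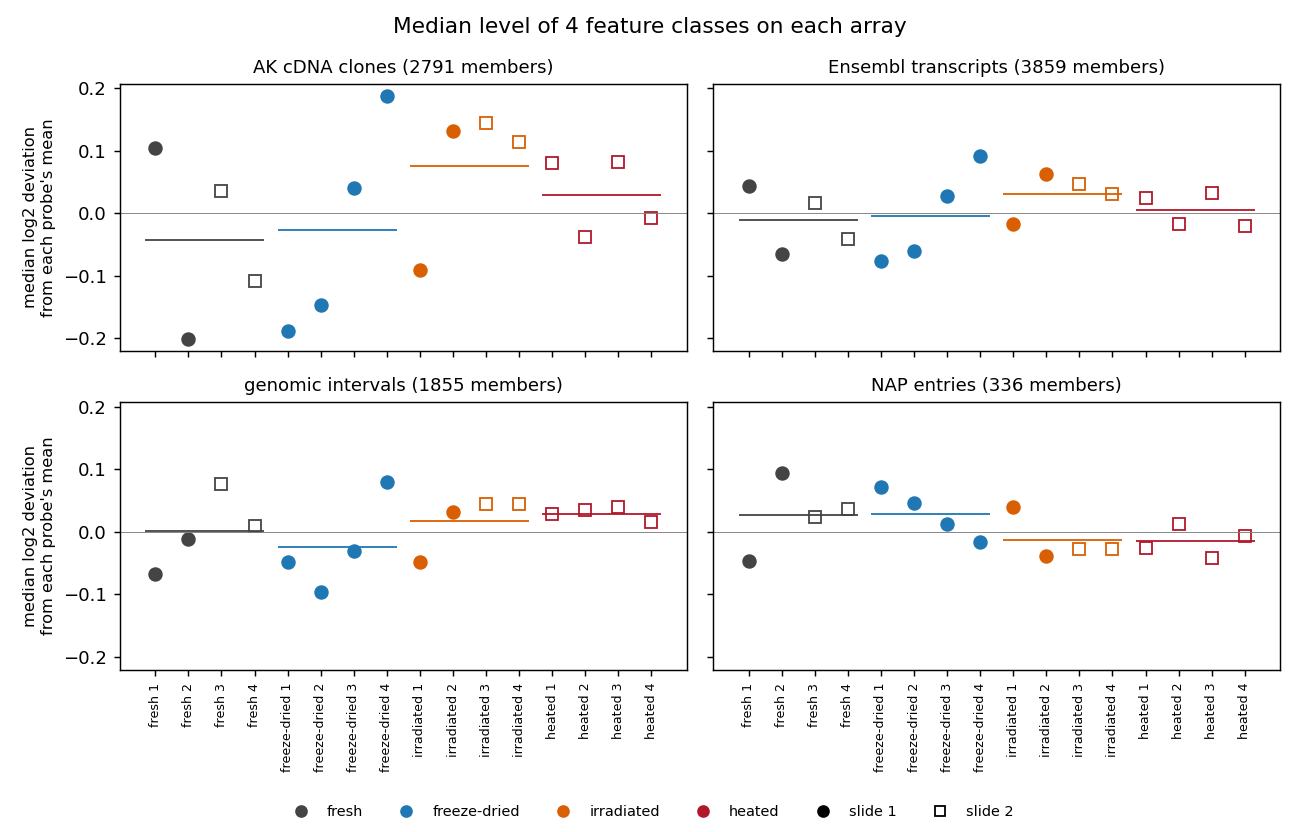
Median deviation (log2) of the members of 4 classes on each of 16 arrays, where each point is 1 animal, filled circles are slide 1, open squares are slide 2 and lines are group means. The AK clones spread from -0.20 in fresh 2 to 0.19 in freeze-dried 4, wider than the other 3 classes, and the groups overlap.

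Members that differed between irradiated and fresh animals were more often higher in the irradiated ones, by a margin that depended on the processing. In the limma fit 102 members were higher and 36 lower in the irradiated animals, 138 of 9719 or 1.42%, where 1.09% of all 34261 probes were called (0.677% higher and 0.414% lower). In 47 of the 138 the difference was at least 2-fold, against 9 of 236 called RefSeq probes. The median size was 0.72 (log2), against 0.43 for the called RefSeq probes and 0.47 for all called probes. The median SE was 0.13 for the called members and 0.08 for the called RefSeq probes. A probe with a larger SE needs a larger difference to be called, and the part of this in the sizes was not tested. With normexp background correction the same 138 members had a median of 0.39, and 48 members were called higher and 39 lower. In the values of the authors' deposited table, tested the same way, 195 were called higher and 162 lower. Of the 138, 11 were members only through the irradiated group, where they are higher, so the signal rule itself favoured a difference in them. The signal rule was met in all 4 groups by 109. By class, 49 of 2791 AK clones were called (39 higher), 57 of 3859 Ensembl transcripts (42 higher), 17 of 1855 intervals (12 higher) and 3 of 336 NAP entries (0 higher). The median difference of all AK members was 0.12 and of all members 0.05, against 0.02 for all probes.

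The largest increase was in ENSMUST00000152371. Its level was -3.40, -4.43, -3.15 and -2.14 in fresh 1 to 4 and -2.83, -1.88, -1.52 and -1.29 in freeze-dried 1 to 4. It was -0.77, -0.72, -0.73 and -0.69 in the irradiated and -2.96, -3.08, -3.11 and -2.41 in the heated animals. All 4 irradiated animals lay above the other 12 and close to each other, and the freeze-dried animals overlapped the fresh and the heated ones. The difference to the fresh animals was 2.55 (SE 0.39), 5.87-fold, with a limma adjusted p of 0.0105. On slide 1 alone it was 3.17 and on slide 2 alone 1.94. Over the 16 arrays the RefSeq gene with the most similar pattern was Egr1, which encodes an immediate early transcription factor (Pearson r 0.968 over 16 arrays that share the groups and slides), followed by Hbp1 (0.963). ENSMUST00000196066 was also highest in the irradiated animals, with -4.47, -4.64, -3.87 and -3.55 in the fresh, -3.91, -2.95, -2.77 and -2.32 in the freeze-dried, -2.01, -1.95, -1.59 and -1.65 in the irradiated and -4.25, -4.10, -4.05 and -3.65 in the heated animals. The irradiated animals did not overlap with any other group, and their difference to the fresh animals was 2.33 (SE 0.30, adjusted p 0.00469).

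Among the intervals, the largest increase was in chr6:31007184-31007725 on the reverse strand, an interval of 542 bp. Its level was -7.43, -6.05, -7.13 and -7.34 in the fresh, -7.16, -6.17, -5.08 and -4.79 in the freeze-dried, -4.77, -4.62, -4.63 and -4.65 in the irradiated and -5.46, -6.09, -7.33 and -6.28 in the heated animals. It was above background in all 4 irradiated and 2 of 4 freeze-dried animals and in no fresh or heated animal. It was a member only through the irradiated group, where it is high, so these levels are a description and no test is given. Another interval, chr8:59994102-59994797 on the forward strand, had a smaller and tighter increase. It was -2.96, -2.76, -2.97 and -2.66 in the fresh, -2.69, -2.53, -2.41 and -2.38 in the freeze-dried, -2.02, -2.15, -2.14 and -2.14 in the irradiated and -2.88, -3.00, -3.10 and -2.93 in the heated animals. The irradiated animals did not overlap with any other group, and the difference to the fresh animals was 0.73 (SE 0.08, adjusted p 0.0026).

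Lower levels in the irradiated animals were fewer. ENSMUST00000148843 was measured by 2 probes and both were called. The first gave 0.56, -0.58, 0.14 and -0.55 in the fresh, -0.28, -0.75, -0.93 and -0.83 in the freeze-dried, -1.77, -1.46, -1.43 and -1.57 in the irradiated and -0.09, -0.52, 0.19 and -0.31 in the heated animals, and the irradiated animals lay below all others. The difference to the fresh animals was -1.45 (SE 0.23, adjusted p 0.0141) for this probe and -1.10 (SE 0.24, adjusted p 0.0462) for the second. AK040706 was -2.68, -2.43, -2.63 and -3.42 in the fresh and -3.81, -3.93, -4.25 and -4.08 in the irradiated animals, without overlap, a difference of -1.23 (SE 0.25, adjusted p 0.0362). In freeze-dried 2, 3 and 4 it was -3.68, -3.81 and -3.58, close to the irradiated animals, while freeze-dried 1 was at -2.67.

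The number of members called between irradiated and fresh animals depended on single arrays and on the slide. It was 245 with slide as a block (2.23% of all probes), 63 within slide 2 (0.234%) and 0 within slide 1 (0%), where 2 animals stood against 2. Without fresh 1, 2 or 3 it was 61, 50 and 75, and without fresh 4 it was 222. Without irradiated 1 to 4 it was 48, 32, 29 and 65, without freeze-dried 1 it was 254, and without heated 1, 2 or 3 it was 90, 74 and 79. Without the 4 arrays with low hindbrain signal (fresh 2, freeze-dried 2, heated 2 and heated 4) no member passed the limma test (0.00292% of all probes), with 1361 members at an unadjusted p under 0.05. The 138 members had a median size of 0.67 without these arrays, against 0.72 with them. In all 138 the 2 groups did not overlap, so leaving out arrays could not turn the sign. Over all probes this held for 372 of the 374 called, so it is not particular to the members.

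**Figure D2:**
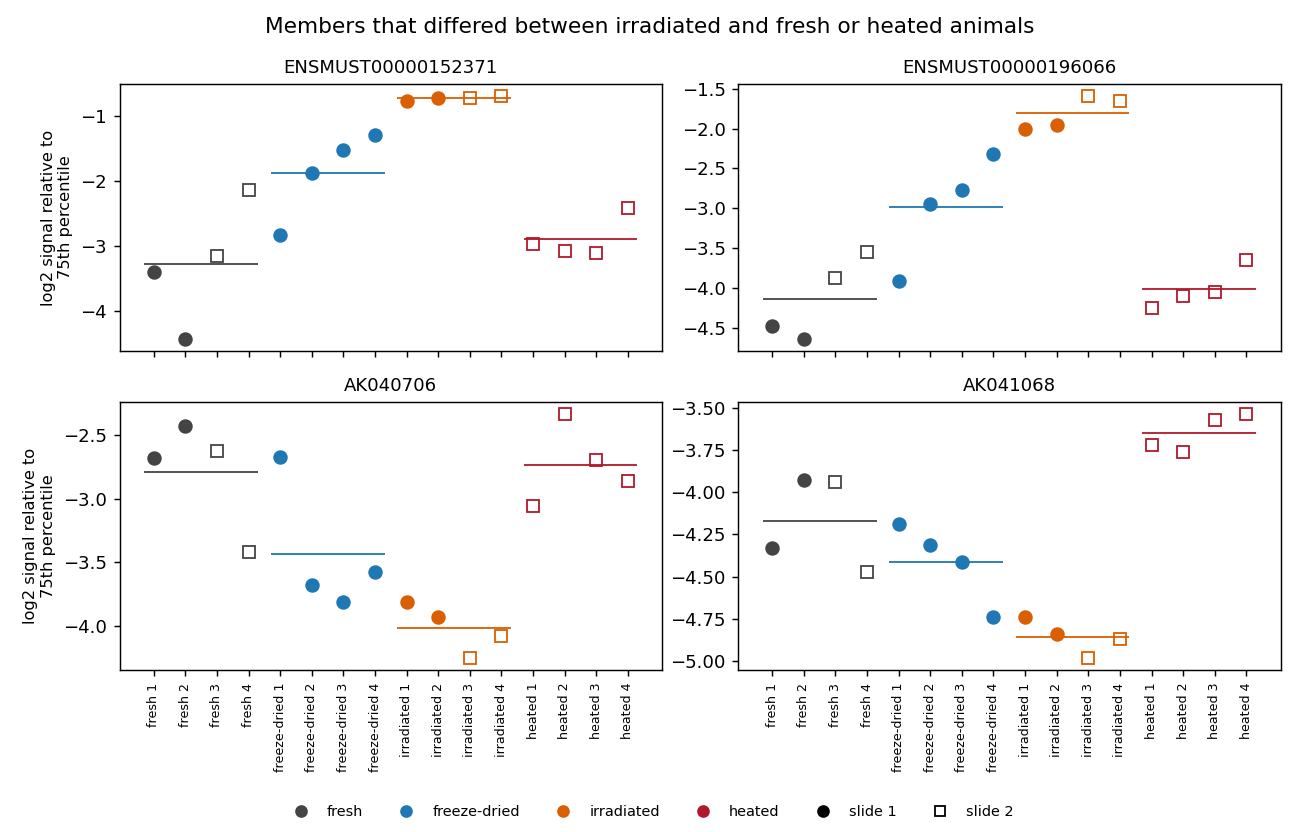
Level (log2 signal, 75th percentile subtracted) of 4 members in each of 16 animals, with group means as lines, filled circles for slide 1 and open squares for slide 2. ENSMUST00000152371 and ENSMUST00000196066 were highest in all 4 irradiated animals, and AK041068 was highest in all 4 heated animals.

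Heated and irradiated animals also differed, and here most called members were lower in the heated animals. The limma fit called 109 members, 31 higher and 78 lower in the heated, or 1.12% against 0.788% of all probes (0.406% higher and 0.382% lower). This comparison shares its irradiated animals with the one before, and the values of both are given. Of the 109, 7 were members only through the group where they are higher, and 86 met the signal rule in all 4 groups. ENSMUST00000136648, among the largest decreases, was -2.36, -1.96, -1.93 and -1.98 in the irradiated and -4.91, -4.56, -4.73 and -4.10 in the heated animals, a difference of -2.52 (SE 0.33, adjusted p 0.0045). In the fresh animals it was -4.12, -4.79, -4.27 and -3.46 and in the freeze-dried -3.86, -3.09, -2.40 and -2.26. The 4 irradiated and the 4 heated animals lay apart, and freeze-dried 3 and 4 reached the level of the irradiated ones. In the interval chr8:59994102-59994797 the heated animals were lower by 0.86 (log2 difference -0.86, SE 0.08, adjusted p 0.00179).

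AK041068 and ENSMUST00000061796 were higher in the heated than in the irradiated animals. AK041068 was -4.74, -4.84, -4.98 and -4.87 in the irradiated and -3.72, -3.76, -3.57 and -3.54 in the heated animals, a difference of 1.21 (SE 0.13, adjusted p 0.00243). In the fresh animals it was -4.33, -3.93, -3.94 and -4.47 and in the freeze-dried -4.19, -4.31, -4.41 and -4.74. The 4 heated animals were the highest of the 16, and the irradiated animals were at or below the lowest freeze-dried animal. ENSMUST00000061796 was -2.08, -2.36, -2.21 and -2.34 in the irradiated and -1.45, -1.17, -1.14 and -1.36 in the heated animals, a difference of 0.97 (SE 0.13, adjusted p 0.00539). Its freeze-dried values, from -2.36 to -1.90, overlapped those of the irradiated animals, and the heated values overlapped with the fresh ones. On slide 2 alone, where 2 irradiated and 4 heated animals lay side by side, 222 members passed (0.966% of all probes), and over all arrays with slide as a block 82 (0.569%). Without freeze-dried 1 there were 202, without irradiated 1 to 4 there were 31, 25, 46 and 47, and without heated 1 to 4 there were 41, 24, 31 and 52. Without the 4 arrays with low hindbrain signal 1 member passed (0.0117% of all probes), and the 109 members had a median size of 0.77 against 0.80. All 109 kept their sign, which was fixed in advance for the 108 whose groups did not overlap (269 of 270 called over all probes).

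Heated animals differed from freeze-dried animals in more members than any other pair of groups. The limma fit called 202 members, 106 higher and 96 lower in the heated, which is 2.08% of the members against 3.83% of all 34261 probes (2.33% higher and 1.49% lower) and 4.52% of the RefSeq probes. Intervals were called at 2.59% (48 of 1855, 28 higher), AK clones at 2.04% (57 of 2791, 38 higher), Ensembl transcripts at 1.97% (76 of 3859, 31 higher) and NAP entries at 2.08% (7 of 336, 1 higher). The median size of the called differences was 0.45 (log2), and 13 reached 2-fold. Of the 202, 7 were members only through the group where they are higher, so the signal rule itself favoured a difference in them. It was met in all 4 groups by 171. The 2 groups were on different slides, and the slide could be separated only through the fresh and irradiated animals. With slide as a block 0 members and 0% of all probes passed, with 566 members at an unadjusted p under 0.05. The differences of all 202 members kept their sign in that fit, with a median size of 0.32.

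Among the intervals, chr8:119092623-119094219 on the reverse strand, of 1597 bp, had the smallest p. It was 1.57, 1.45, 1.49 and 1.52 in freeze-dried 1 to 4 and 2.08, 2.01, 2.10 and 2.06 in heated 1 to 4. In the fresh animals it was 1.59, 1.63, 1.89 and 1.71 and in the irradiated 1.46, 1.57, 1.74 and 1.78. The heated animals lay above all 12 others, and within the fresh and irradiated groups the animals on slide 2 lay above those on slide 1. The difference between heated and freeze-dried animals was 0.56 (SE 0.08, adjusted p 0.00529), and 0.34 with slide as a block. The interval chr17:41231055-41249764 on the reverse strand was -3.73, -3.87, -3.86 and -3.47 in the freeze-dried and -2.68, -2.76, -2.93 and -2.83 in the heated animals. Its difference was 0.93 (SE 0.19, adjusted p 0.0216) and fell to 0.32 with slide as a block, and the fresh animals were at -3.82 and -3.61 on slide 1 and at -3.02 and -2.90 on slide 2.

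Lower levels in the heated animals were seen in chr3:95457337-95458070 on the reverse strand, of 734 bp. It was -5.19, -5.29, -5.05 and -4.66 in the freeze-dried and -6.36, -6.21, -6.01 and -5.98 in the heated animals, where it was above background on no array. The fresh animals, at -5.12, -5.56, -5.78 and -5.03, and the irradiated, at -4.61, -4.39, -4.87 and -4.58, lay above every heated animal too. The measured difference between heated and freeze-dried animals was -1.09 (SE 0.17, adjusted p 0.0092), and the freeze-dried animals were at least 1.03-fold above the limit of measurement of the heated arrays. With slide as a block the difference was -0.95. The interval chr12:88221395-88221559 on the forward strand, of only 165 bp, was -4.58, -3.99, -4.56 and -4.16 in the freeze-dried and -5.14, -5.12, -5.70 and -5.13 in the heated animals, without overlap (difference -0.95, SE 0.19, adjusted p 0.0222). Its fresh values of -5.27 to -4.48 overlapped both groups.

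Of the named accessions, ENSMUST00000136858 had the smallest p of all members. It was -0.31, -0.36, -0.46 and -0.58 in the freeze-dried and -0.93, -0.95, -0.88 and -0.94 in the heated animals, and all 4 heated animals lay below the other 12. The difference was -0.50 (SE 0.06, adjusted p 0.00368), and -0.42 with slide as a block. AK158602 was -4.82, -5.15, -5.09 and -5.54 in the freeze-dried and -4.40, -4.22, -2.64 and -3.80 in the heated animals, a difference of 1.38 (SE 0.33, adjusted p 0.0384) in which heated 3 was highest. The 3 ependymal markers (3 of 3 above background on all arrays) had a mean of 0.26 to 0.60 in the heated and -0.35 to -0.04 in the freeze-dried animals, and their part in the result was not tested. The count of 202 became 36 without freeze-dried 2, 94 without freeze-dried 3, 364 and 307 without fresh 1 or 2, and 92, 35, 74 and 54 without heated 1 to 4. Without the 4 arrays with low hindbrain signal it was 2 (0.0409% of all probes), and the 202 members all kept their sign with a median size of 0.42. That sign was fixed in advance for the 189 members whose groups did not overlap (1280 of 1311 called over all probes). With the Ddx3y level as a covariate the count was 13, and the 202 members had a median size of 0.41 against 0.45.

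The strands of an interval were compared where both held members. In 102 of the 195 such intervals the difference between heated and freeze-dried animals had the same sign on both strands. The differences of the strands lay a median of 0.27 (log2) apart. In 9 intervals a member was called on 1 strand, and in none on both. The intervals shown next were picked from these for the largest differences between their strands, so that contrast follows from the choice. In chr8:40238025-40264250, an interval of 26226 bp, the reverse strand was -4.95, -5.27, -5.60 and -4.47 in the freeze-dried and -3.89, -3.85, -3.72 and -3.67 in the heated animals. All heated animals lay above all freeze-dried ones, with a difference of 1.29 (SE 0.28, adjusted p 0.0264). The forward strand of that interval was 4.36, 4.44, 4.34 and 4.28 in the freeze-dried and 4.48, 4.46, 4.24 and 4.33 in the heated animals, a difference of 0.02 (SE 0.06, adjusted p 0.866). The reverse strand also differed between slides by 0.78 (SE 0.19, adjusted p 0.0336), with fresh 1 and 2 at -5.16 and -4.98 and fresh 3 and 4 at -3.88 and -4.16. In chr12:21584725-21595050 the forward strand was a member only through the heated group, so its difference of 1.14 (SE 0.28) is a description with no test, and the reverse strand, at 0.36 to 0.59 in all 16 animals, differed by -0.07 (SE 0.05, adjusted p 0.431). In chr11:6421951-6429173 the forward strand was lower in the heated animals by 0.72 (log2 difference -0.72, SE 0.19, adjusted p 0.0497), and the reverse strand, at 1.05 to 1.31 in all animals, differed by 0.04 (SE 0.07, adjusted p 0.75).

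**Figure D3:**
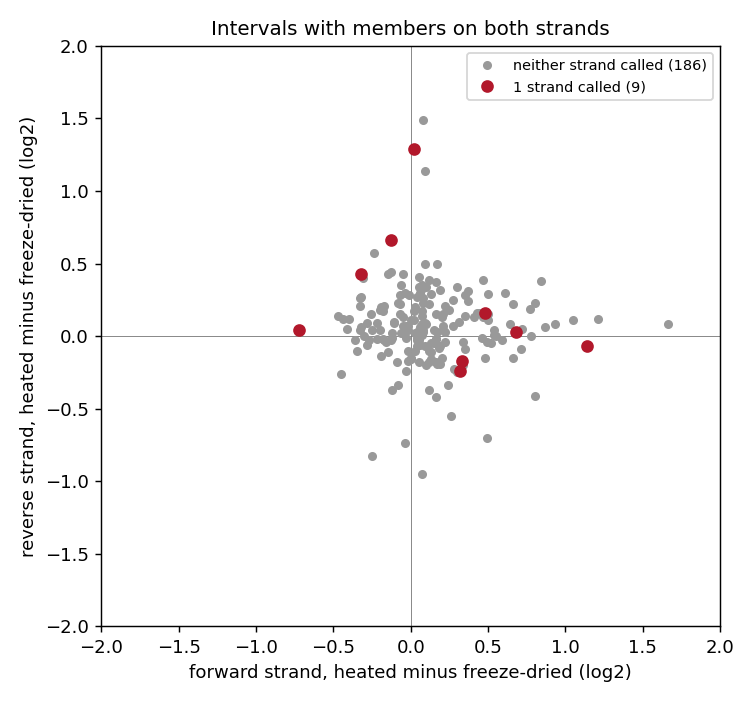
Log2 difference between heated and freeze-dried animals on the forward (x axis) and reverse (y axis) strand of the 195 intervals with members on both strands, 1 point per interval, with the mean taken where a strand had several probes. The 9 intervals with a called member are in red, and for chr8:40238025-40264250 the reverse strand is at 1.29 and the forward strand at 0.02.

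Heated and fresh animals differed in 103 members, 74 higher and 29 lower in the heated by the limma fit. This is 1.06% of the members against 2.73% of all probes (2.04% higher and 0.698% lower). AK clones made up 36 of them (34 higher), Ensembl transcripts 39 (23 higher) and intervals 16 (10 higher). With quantile normalization 92 members passed, 54 higher and 38 lower. ENSMUST00000077447 had the largest increase, with -5.99, -5.80, -6.30 and -6.13 in the fresh animals, above background in none of them, and -5.61, -2.52, -4.06 and -3.97 in the heated animals. The heated animals lay above all fresh ones, from heated 1 just above to heated 2 far above, and were at least 2.21-fold higher (measured difference 2.01, SE 0.45, adjusted p 0.0299). ENSMUST00000022195 was 1.14, 1.21, 1.17 and 1.20 in the fresh and 0.87, 0.16, 0.90 and 0.54 in the heated animals, a difference of -0.56 (SE 0.12, adjusted p 0.0299). Heated 2 and 4, which are the low ones here, were also the animals with low Pcp2, 1 of the 2 cerebellar markers. In this pattern the nearest RefSeq genes were Ebf2 (Pearson r 0.98 over 16 arrays) and Ebf1 (0.974), both transcription factors.

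Among the intervals, chr5:107503800-107515575 on the reverse strand was -6.46, -5.66, -6.04 and -5.70 in the fresh and -5.04, -4.87, -4.76 and -4.84 in the heated animals. The groups did not overlap, no fresh array was above background, and the heated animals were at least 1.24-fold higher (measured difference 1.09, SE 0.20, adjusted p 0.0129). The interval chr2:33496712-33501183 on the forward strand was -3.14, -3.91, -3.34 and -3.29 in the fresh and -4.02, -4.85, -3.97 and -4.63 in the heated animals, with heated 2 and 4 the lowest (difference -0.95, SE 0.21, adjusted p 0.028). With slide as a block 41 members were called between heated and fresh animals (1.23% of all probes), and within slide 2 it was 0 (0%), with 1159 members at an unadjusted p under 0.05. Without fresh 1, 2 or 3 the count was 46, 24 and 202, and without heated 1 to 4 it was 49, 21, 45 and 38. Without the 4 arrays with low hindbrain signal it was 0 (0.00292%), with 567 at an unadjusted p under 0.05. The 103 members all kept their sign with a median size of 0.43 against 0.48. That sign was fixed in advance for the 95 members whose groups did not overlap (913 of 937 called over all probes).

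Freeze-drying alone gave no called member. Between freeze-dried and fresh animals 0 of 9719 members passed the limma test, against 0.00292% of all probes (1 of 34261). At an unadjusted p under 0.05 there were 783 members, 8.06% where all probes had 10.5%, and the smallest adjusted p was 0.139. That member, ENSMUST00000123959, was -4.10, -4.11, -4.33 and -4.02 in the fresh, -3.70, -3.51, -3.43 and -3.36 in the freeze-dried, -3.35, -3.49, -3.40 and -3.54 in the irradiated and -4.35, -4.22, -4.21 and -3.95 in the heated animals. The freeze-dried animals lay above all fresh ones, with a difference of 0.64 (SE 0.10), and the irradiated animals shared their level. With slide as a block 1 member passed (0.00584% of all probes). The count was 3 without freeze-dried 1, 1 without fresh 2, irradiated 3 or heated 3, and 0 in the quantile-normalized, normexp and deposited values.

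Radiation given to freeze-dried sperm gave no called member either. Between irradiated and freeze-dried animals 0 of 9719 members passed, as did 0% of all probes, with 722 members at an unadjusted p under 0.05, a rule that 7.05% of all probes met, and a smallest adjusted p of 0.28. That member, AK077728, was -2.05, -2.10, -1.93 and -1.95 in the freeze-dried and -1.42, -1.31, -1.22 and -1.42 in the irradiated animals, a difference of 0.66 (SE 0.10) without overlap. In the fresh animals it was -2.58, -2.30, -1.98 and -2.16 and in the heated -2.16, -2.30, -2.25 and -2.04, so the irradiated animals were the highest 4 of 16. In the interval chr8:59994102-59994797 the difference was 0.39 (SE 0.08, adjusted p 0.578). The median difference over all AK members was 0.10 and over the NAP entries -0.04, against 0.01 over all probes. The count was 1 without fresh 1 or freeze-dried 4, and 0 in the quantile-normalized, normexp and deposited values.

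The slide itself was associated with more called members than any pair of groups. Its difference in the fit rests on the 2 groups with arrays on both slides, the fresh and the irradiated. With group and slide in the limma fit, 405 members differed between slides, 273 higher and 132 lower on slide 2, or 4.17% against 6.32% of all probes (3.42% higher and 2.89% lower). The intervals had 7.33% (136 of 1855, 107 higher), AK clones 3.15% (88 of 2791) and Ensembl transcripts 3.34% (129 of 3859). The share of the intervals was close to that of the RefSeq probes, 7.17% (1759 of 24542), and of the NM_ probes among them, 7.37%. Of the 26 members with a slide difference of at least 2-fold, 17 were intervals. With quantile normalization 441 members passed, 232 higher and 209 lower on slide 2. The members named next were picked among called members whose slides did not overlap, so that separation follows from the choice.

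The interval chr16:39984031-40081556 on the reverse strand, of 97526 bp, was -1.61 and 0.20 in fresh 1 and 2 and 1.51 and 0.91 in fresh 3 and 4. It was 0.05, -0.79, -1.52 and -0.30 in the freeze-dried animals, -0.47 and -0.26 in irradiated 1 and 2, 0.69 and 0.71 in irradiated 3 and 4, and 0.75, 0.62, 0.59 and 0.67 in the heated animals. All 8 arrays of slide 2 lay above all 8 of slide 1. The slide difference in the limma fit was 1.49 (SE 0.37, adjusted p 0.0347). The interval chr1:82892851-82943201 on the reverse strand had the same order, with -3.18 to -2.15 on slide 1 and -1.42 to -0.99 on slide 2 (difference 1.25, SE 0.24, adjusted p 0.0141). In chr1:45066850-45095650 on the reverse strand the slides were at -5.69 to -4.04 and at -3.45 to -2.91 (difference 1.33, SE 0.34, adjusted p 0.0366). ENSMUST00000173221 lay between -6.46 and -5.16 on slide 1 and between -4.64 and -4.41 on slide 2. It was a member only through the heated group, all on slide 2, so this is a description with no test.

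Other intervals were lower on slide 2. On the forward strand of chr13:48576557-48581836 the level was -0.22 and -0.34 in fresh 1 and 2 against -1.09 and -0.87 in fresh 3 and 4, and -0.64 and -0.62 in irradiated 1 and 2 against -0.96 and -1.23 in irradiated 3 and 4. Over all 16 animals slide 1 lay between -0.64 and -0.22 and slide 2 between -1.23 and -0.68. The slide difference in the limma fit, which rests on the fresh and irradiated animals, was -0.58 (SE 0.08, adjusted p 0.00658). The reverse strand of chr3:84616804-84617383 lay between -3.02 and -2.53 on slide 1 and between -3.72 and -3.17 on slide 2 (difference -0.55, SE 0.10, adjusted p 0.0114). For chr11:58136882-58143829 on the reverse strand the ranges were -3.17 to -2.42 and -3.91 to -3.44 (difference -0.66, SE 0.15, adjusted p 0.0245). AK045392 was at -2.34 to -1.97 on slide 1 and at -3.02 to -2.68 on slide 2 (difference -0.62, SE 0.08, adjusted p 0.00658). Within the fresh group alone 155 members differed between the slides and within the irradiated group 1, in each case 2 animals against 2. No share over all probes is given for these counts, so they do not tell a change in the members from one over the array. Fresh 1, with the muscle actin gene Acta1 at 1.77, and fresh 2, with low hindbrain signal, were both on slide 1, and their part was not tested. A limma test of the slide difference in the fresh against that in the irradiated group called 0 members (0% of all probes). It had 504 members at an unadjusted p under 0.05 and a smallest adjusted p of 0.391. The count of 405 was 220, 251, 49 and 217 without fresh 1 to 4, and 232, 269 and 131 without irradiated 1, 2 or 4. Without the 4 arrays with low hindbrain signal it was 9 (0.0788% of all probes), and the 405 members all kept their sign with a median size of 0.39 against 0.40. That sign was fixed in advance for the 197 members whose slides did not overlap (1142 of 2164 called over all probes).

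**Figure D4:**
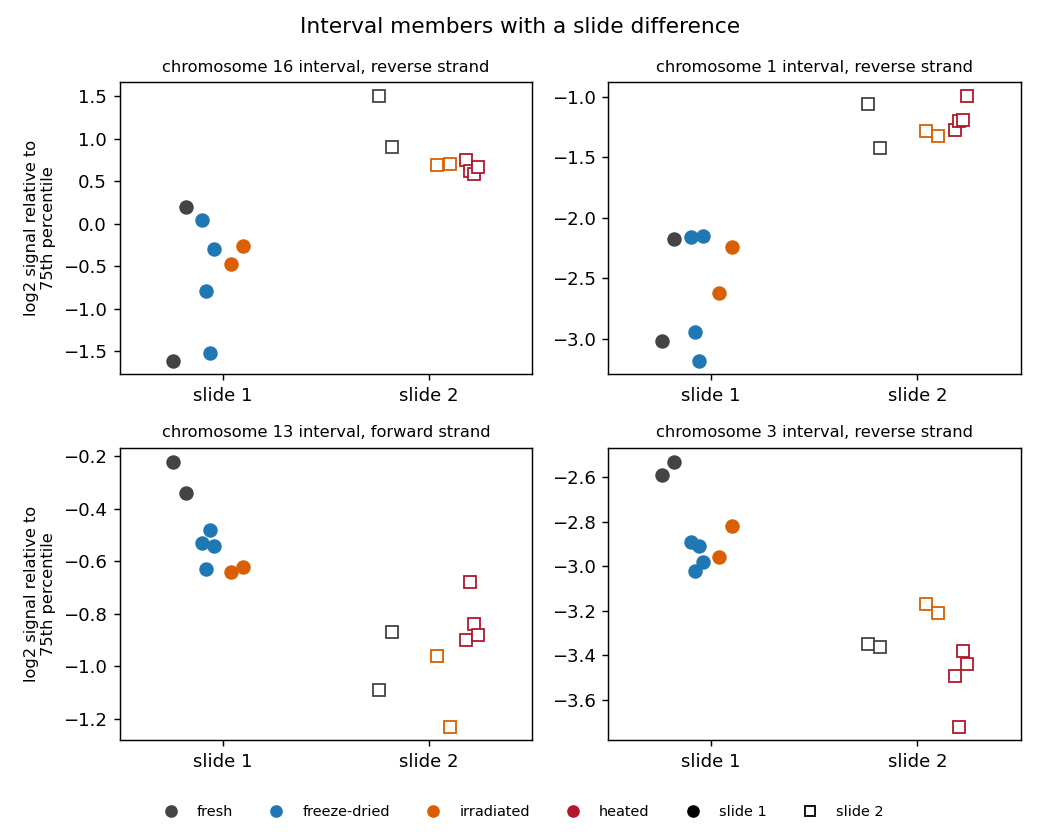
Level (log2 signal, 75th percentile subtracted) of 4 interval members on slide 1 and slide 2, 1 point per animal and coloured by group. The chromosome 16 and chromosome 1 intervals were higher on all 8 arrays of slide 2, and the chromosome 13 and chromosome 3 intervals were lower.

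BX528370 and BB756663 had the largest spreads over the 16 animals and followed markers of single animals. BX528370 was -7.54, -1.65, -7.22 and -1.47 in fresh 1 to 4, -1.37, -2.12, -0.47 and -0.33 in the freeze-dried, -0.62, -0.24, -0.28 and -7.75 in the irradiated and -7.03, -5.59, -6.01 and -2.97 in the heated animals. It was high in the 10 animals with Ddx3y and low in the other 6. Its Pearson r with Ddx3y was 0.962 over 16 arrays, and that of ENSMUST00000185837 was 0.964. The X-linked interval chrX:47890565-47915775 on the forward strand followed the same animals at a narrower range (r 0.922), with -1.61 to -1.08 in the 6 animals without Ddx3y and -0.86 to -0.20 in the 10 with it. AK053394 followed Xist by 1 probe (r 0.959), at -1.73 to -1.09 in the 6 animals with Xist and -3.53 to -2.76 in the others. A second probe of AK053394 did not follow it (r 0.096), so the probes of this clone disagree. AK017459 had r 0.938 with Xist, at -0.92 to -0.71 against -1.32 to -1.05.

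BB756663 followed the homeobox gene Hoxb5, which marks hindbrain and spinal cord (Pearson r 0.968 over 16 arrays). It was -0.22, -6.54, 0.41 and 0.37 in the fresh, -0.07, -3.15, 0.04 and -1.12 in the freeze-dried, -1.40, -0.19, 0.19 and 0.08 in the irradiated and 0.14, -7.34, 0.27 and -7.85 in the heated animals. BE847805 was low in the same animals, at -7.58 in fresh 2, -7.30 in heated 2 and -7.78 in heated 4, partly lowered to -3.69 in freeze-dried 2, and at -3.01 to -2.21 in the other 12. ENSMUST00000099050 and ENSMUST00000099683 separated other animals. ENSMUST00000099050 was -0.66, 1.79, -3.90 and -3.99 in the fresh, -1.49, -2.80, -4.40 and -2.67 in the freeze-dried, -0.38, -3.84, -3.69 and 0.10 in the irradiated and -3.66, -3.46, -3.30 and -0.85 in the heated animals. ENSMUST00000099683 had its highest values, 0.81 and -0.88, in the same 2 animals, fresh 2 and irradiated 4. Each group had at least 1 animal at -1.49 or above for ENSMUST00000099050 and at least 2 at -2.67 or below.

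Single animals also stood out next to markers of neighbouring tissue. In freeze-dried 2, where the skin keratin gene Krt14 was at 2.49 against -3.73 to -3.06 elsewhere, ENSMUST00000006963 was at -1.90 against -3.46 to -3.03, and ENSMUST00000145102 at 2.37 against 0.63 to 1.33. In fresh 1, where the muscle actin gene Acta1 was at 1.77 against -1.59 to -1.07, the interval chr3:88009045-88036270 on the forward strand was at -0.10 against -1.02 to -0.58 by 1 probe and at 4.07 against 3.48 to 3.91 by a second. The interval chr13:62376235-62376890 on the forward strand was at -2.42 in fresh 1 against -3.17 to -2.79 in the other animals.

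**Figure D5:**
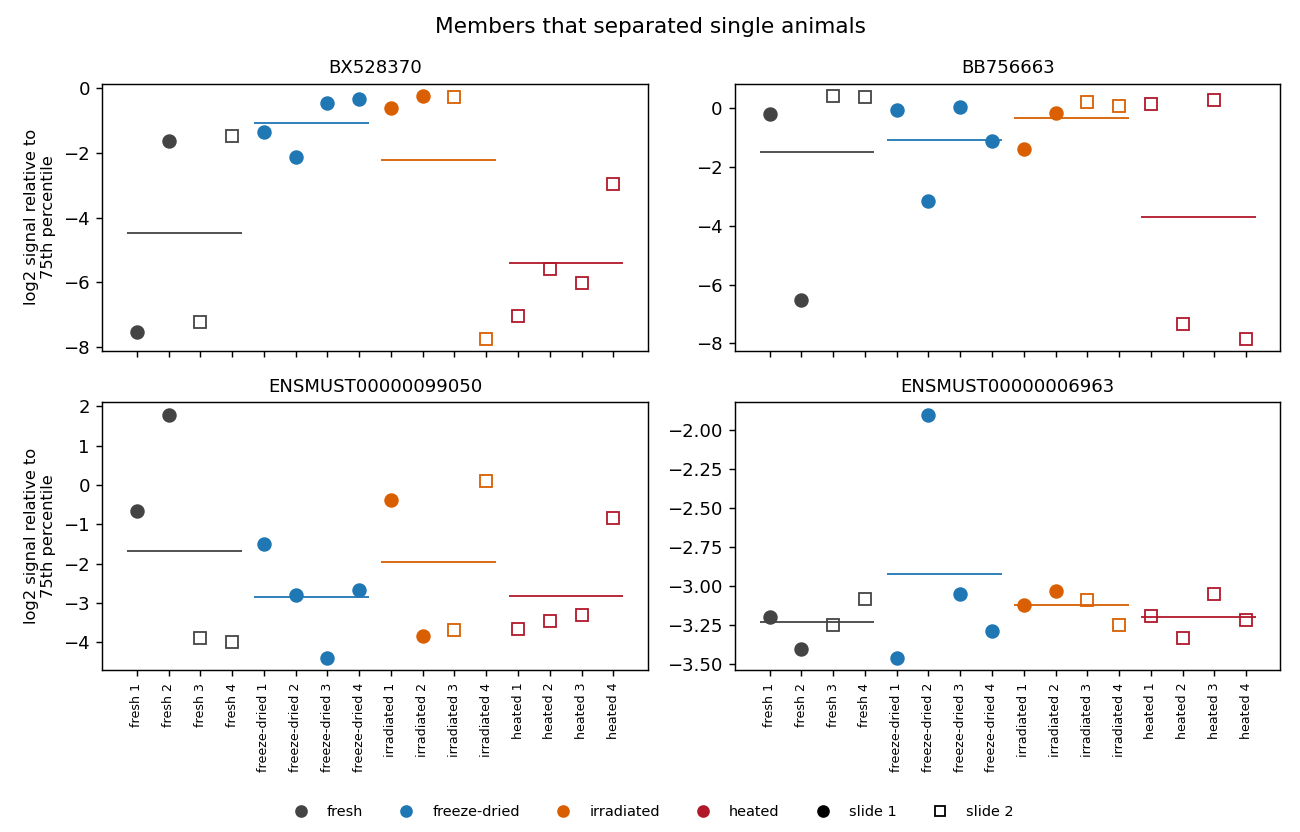
Level (log2 signal, 75th percentile subtracted) of 4 members in each animal, with group means as lines. BX528370 was lowest in the 6 animals without Ddx3y, BB756663 in fresh 2, heated 2 and heated 4, ENSMUST00000099050 was highest in fresh 2, and ENSMUST00000006963 in freeze-dried 2.

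Features with more than 1 member probe allow the probes to be set beside each other. There were 234 such features with 483 probes. For heated against freeze-dried animals all probes of a feature had the same sign in 64.5% of them, and in 10 features at least 1 probe was called. In 2 features at least 2 probes were called. For irradiated against fresh animals these were 58.5%, 6 features and 1 feature, which was ENSMUST00000148843. Between slides they were 62.8%, 29 features and 4 features. The probes of a feature lay a median of 0.16 (log2) apart in the difference between heated and freeze-dried animals and 0.18 apart between slides.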

How the data were processed

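The members and gene lists were chosen with earlier results of these data known. Total RNA of 16 brains was labelled with Cy3 and hybridized to 16 arrays. The authors extracted the deposited fluorescence intensity values by the software Feature Extraction (Agilent, version 11.0.1.1), per the file headers. How the software corrected the background of the processed signal is not given in the sources used here. Flags of 0 or 1 per spot (well above background, outlier, saturated) come from the same deposited files, per the file headers. The deposited value table holds log2 values of 31313 probes, 8269 of them members. How it was made is not given in the sources used here. The medians of its columns, in the order of animals 1 to 4, were 9.337, 9.343, 9.336 and 9.339 (fresh), 9.335, 9.342, 9.342 and 9.344 (freeze-dried), 9.34, 9.344, 9.341 and 9.348 (irradiated) and 9.341, 9.34, 9.344 and 9.341 (heated). Each of its columns correlated with the quantile-normalized scanner values of its array at r of 0.999 or more, so its direction and log2 scale are known. Its shift against these values followed the slide difference of each probe at a slope of -0.798 (r -0.998 over 31313 probes, not independent replicates). It was used as an alternative only.

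Spots of 1 probe were averaged, 50 outlier values were left out (24 of them in heated 3) and the fit used the remaining arrays for those probes. Signals were converted to log2 and the 75th percentile of each array was subtracted. All 16 arrays were fitted in limma 3.58.1 (R 4.3.3) with 4 group means and two-sided moderated tests. A member was called at a Benjamini-Hochberg adjusted p under 0.05 over all 34261 probes. The slide came from the file headers, and its difference was fitted beside group. Where no array of a group was above background, a fold is a lower bound against the higher, on each array, of its own value and the dimmest signal measured above background. The procedure was tested on simulated data. Figures were drawn with matplotlib 3.10.9 in Python 3.11.15.

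The rule for named members takes the largest non-overlapping changes per comparison, or the smallest p where few passed, the 10 largest spreads, the 3 members nearest in pattern to Ddx3y, Xist, Hoxb5, Gh, Acta1 and Krt14, the smallest p per class and known long noncoding RNA names. It also takes the intervals with a called strand whose strands differ most between heated and freeze-dried animals. TUG1, NRON, PINC and the probes that are not members were added after their values were seen, as were the accessions picked from the rule. Accessions are limited to about 2 each way per comparison because the files do not pair them with genes. Lists of members by gene symbol or description could not be made, since the scanner files hold neither. Names of RefSeq probes are those of the RefSeq table of GRCm38.p6. Alternatives were quantile normalization, normexp background correction, filters, slide, replicate number, slide row, single slides and left-out arrays.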

Additional observations from a re-analysis of the deposited data

Results flagged for a closer look

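In 22 of 268 groups of 4 animals, 1 animal lay so far from the other 3 that the gap divided by the range passed the 95% critical value of Dixon's test. Chance flags about 5% of groups that were not picked by their values. Some members here were picked for a large spread or for following markers of single animals, so 5% is no yardstick for the 22. Of these 22 values, 6 were class medians, 14 belonged to members and 2 to XIST, which is not a member.

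Irradiated 1 stood apart from irradiated 2 to 4 in 5 class medians. The median of all members was -0.039 (others 0.054 to 0.067), of the AK clones -0.091 (0.114 to 0.144), of the intervals -0.048 (0.031 to 0.045), of the NAP entries 0.04 (-0.038 to -0.027) and of the TC entries -0.064 (0.059 to 0.065). The TC median of heated 2 was -0.053 (0.007 to 0.018). Irradiated 1 also stood apart in ENSMUST00000136648, at -2.36 (-1.98 to -1.93), and in chr8:59994102-59994797_F, at -2.02 (-2.15 to -2.14).

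Other single animals were heated 3 in chr12:88221395-88221559_F at -5.7 (-5.14 to -5.12), fresh 2 in chr8:40238025-40264250_F at 4.39 (the others at 4.44) and freeze-dried 4 in chr5:107503800-107515575_R at -4.63 (-5.53 to -5.51). Freeze-dried 2 was at 2.37 in ENSMUST00000145102 (0.82 to 1.08). Heated 4 was at -0.85 in ENSMUST00000099050 (-3.66 to -3.3) and at -1.48 in ENSMUST00000099683 (-5.05 to -4.89).

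Fresh 2 was at -6.54 in BB756663 (-0.22 to 0.41) and at -7.58 in BE847805 (-2.78 to -2.26), and its hindbrain markers were low too. Irradiated 4, the irradiated animal without Ddx3y, was at -7.75 in BX528370 (-0.62 to -0.24), at -1.48 in chrX:47890565-47915775_F (-0.34 to -0.2), at -1.58 in AK053394 (-2.98 to -2.78) and at 3.76 in XIST (-7.75 to -7.49). Heated 4, the heated animal with Ddx3y, was at -2.94 in AK053394 (-1.44 to -1.24) and at -7.58 in XIST (3.49 to 3.69).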

How the results depend on the processing

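Counts of called members are given in the order heated against freeze-dried (202), irradiated against fresh (138), heated against fresh (103), heated against irradiated (109) and slide (405). Counts here and above without a share over all probes beside them do not tell a change in the members from one over the whole array. Quantile normalization and the filter to probes above background on all 16 arrays kept all 5 within 1.5 times. With normexp background correction they were 330, 87, 67, 43 and 757 (higher and lower 214 and 116, 48 and 39, 40 and 27, 15 and 28, 643 and 114), and with no filter 69, 34, 24, 37 and 96. In the deposited table they were 0, 357, 33, 42 and 0 (195 and 162, 17 and 16, 12 and 30 for the middle 3). The members called between heated and irradiated animals had a median size of 0.43 with normexp against 0.80. With slide as a block they were 0, 245 and 41 for the first 3 and 1 for freeze-dried against fresh. Slide and row as blocks, added after seeing the data like the next 2 settings, gave 0, 31, 0 and 169 for the first 4 and 1 for freeze-dried against fresh. Without the 4 arrays low in Hoxb5 the counts were 2, 0, 0, 1 and 9, and with Ddx3y as a covariate 13, 61 and 22 for heated against freeze-dried, irradiated against fresh and heated against irradiated. Irradiated against fresh gave 0 within slide 1 and 63 within slide 2, where heated against fresh gave 0 and heated against irradiated 222; the slide difference gave 155 within the fresh and 1 within the irradiated group. Leaving out 1 array at a time gave 35 to 364, 29 to 254, 21 to 202, 24 to 202 and 49 to 422, 0 to 3 for freeze-dried against fresh and 0 to 1 for irradiated against freeze-dried. Of 90 named called differences, 24 stayed past the threshold without each array in turn and 0 changed sign. Most of them were picked for groups or slides that did not overlap, which fixes the sign in advance.

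With the replicate number as a block the slide count was 0, since numbers and slides coincide in the fresh and irradiated groups, and the other counts stayed within 1.5 times. The numbers did not pair animals: same-numbered animals deviated together with r from -0.372 to 0.347, above 0.1 in 9 of 24 pairs, and 3 of 16 arrays correlated best with their own number.

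Signs that turned, all between heated and freeze-dried animals, were AK203140 (-0.14 with slide and row), BX528370 (0.06 with Ddx3y), chr8:40238025-40264250_F (-0.01 with quantile, -0.02 with normexp, -0.01 to 0.07 without single arrays), the first probe of chr8:40100925-40196350_F (0.06 with slide and row) and its second (0.06 with normexp, with slide or without the 4 arrays, 0.00 in the deposited table, -0.07 to 0.06 without single arrays), and chr11:6421951-6429173_R (-0.05 with normexp, -0.10 with slide and row, -0.06 without the 4 arrays, 0.00 to 0.08 without single arrays). The cause was not tested. With 4 animals a group, 16 arrays limit the precision, and members near background have only a bound.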
